A study of Capra hircus with 24 samples.

Results

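The 10 genes of the Notch pathway described here were measured in dermal papilla cells of cashmere goats (Capra hircus). They are the receptor genes NOTCH1, NOTCH2 and NOTCH3, the glycosyltransferase gene LFNG, the ligand genes JAG1, JAG2 and DLL1, and the target genes HES1, HEY1 and HEYL. They were taken by gene symbol, and each of the 10 symbols had exactly 1 row among the 20326 genes listed for every library. Of these 10 genes, 8 reached the level set for testing (3 libraries with a value of 1 or higher), as did 13049 genes in all. JAG2 and HEYL did not, and their values are given as listed, beside a fit without that level.

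Notch signalling passes between touching cells. A ligand of the Jagged or Delta-like type on one cell binds a Notch receptor on its neighbour, proteases then release the receptor's intracellular part, and this part joins the DNA-binding protein RBPJ in the nucleus and switches on repressor genes of the HES and HEY families. Fringe enzymes such as LFNG add sugars to the receptor and shift its preference between Delta-like and Jagged ligands. In mouse skin the pathway is known for its part in the differentiation and upkeep of the hair follicle, where both the epithelium and the papilla carry its components.

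The libraries were made from total RNA of dermal papilla cells, the mesenchymal cells at the base of the follicle. The cells came from secondary follicles, which grow cashmere, or from primary follicles, which grow guard hair. They were taken in October (anagen, the phase of active growth) or in June (early anagen), from males or from females, which makes 8 groups of 3 libraries and 24 libraries in all. Month and growth stage coincide in the labels, so they cannot be told apart. A seasonal difference below means only October against June, with month and stage together. The labels number the libraries of each group as biological replicates but name no animals, ages or strain, and do not say whether the cells were cultured, so the p-values measure only the spread between these libraries, part of which may be technical.

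The values are a normalised signal, as deposited, that sums to between 959766 and 1045876 per library, and the reads behind them are unknown. Libraries of 1 group correlated across genes with r of 0.993 or more. Among the papilla markers, VCAN (versican) was listed at 206 to 541 and RSPO3 at 134 to 283, whereas ALPL, which encodes alkaline phosphatase, did not pass 2.44, CORIN not 0.34 and HHIP not 0.03 in any library. COL1A1 of fibroblasts was listed at 3291 to 7910, and ACTA2 of the dermal sheath and smooth muscle at 4316 to 7969. Of the defining markers of other cells, CDH5 of endothelium was at 0 in 21 of the 24 libraries and PECAM1 in 8, with PECAM1 reaching 2.08. PTPRC of leukocytes was at 0 in 22 and CSF1R of macrophages was listed at 0.20 to 2.34, and DCT and TYR of melanocytes were at 0 in 21 and 17. Less specific genes of the same lists were detected in every library, with EGFL7 at 9.73 to 41.5, CD14 at 4.16 to 15.7, CD68 at 2.92 to 24.8 and MITF at 6.00 to 11.8. The summed level of 10 keratinocyte markers was 292 to 321 in the secondary October female libraries, against 8.17 to 78.9 in all the others. These are bulk libraries, in which fewer cells of a type and less RNA per cell cannot be told apart.

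Part of the movement that these genes shared was between months. In October JAG1, NOTCH2 and NOTCH3 were lower than in June in both follicle types and both sexes. HES1 was higher in October in males and lower in females. Between follicle types, HES1 kept 1 direction, lower in secondary than in primary cells in October and in June, in males and in females. LFNG and HEY1 were higher in secondary cells in June, and in October neither was called between the follicle types. The differences of NOTCH1 and HES1 between follicle types and between months were not the same in males and females. Some of the differences of JAG1, DLL1, NOTCH2, NOTCH3 and LFNG also differed between the sexes.

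Differences are given on the scale log2(value + 1), tested with limma over all 13049 genes, and a gene is called where its Benjamini-Hochberg adjusted p is under 0.05. Each difference averaged over the sexes sets 6 libraries against 6. Where libraries or groups are said below not to overlap, the share of all genes that did the same was not counted. Between secondary and primary cells in June, 5 members were higher and 2 lower, 7 of 8 called, where 61.9% of all genes tested were called, 31.6% as higher and 30.3% as lower. In October 2 were higher and 2 lower, 4 of 8 called, against 31.5% of all genes, 17.5% as higher and 14.1% as lower. That split over all genes, 2282 higher and 1834 lower, became 1649 and 2693 when each library was rescaled to the same total. For October against June, secondary cells had 6 of 8 members lower and 0 higher, and primary cells likewise 6 lower and 0 higher. Of all genes, 62.9% were called in secondary cells, 29% as higher and 33.9% as lower, and 60.9% in primary cells, 28.6% as higher and 32.3% as lower. In primary cells the split over all genes was 3726 higher and 4216 lower, and it became 4662 and 3464 with that rescaling. The median difference of the 8 members for October against June was -0.39 in secondary and -0.27 in primary cells, beside -0.01 and 0.00 over all genes. For secondary against primary cells it was 0.15 in June and 0.02 in October, beside 0.00 over all genes in each month.

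**Figure D1:**
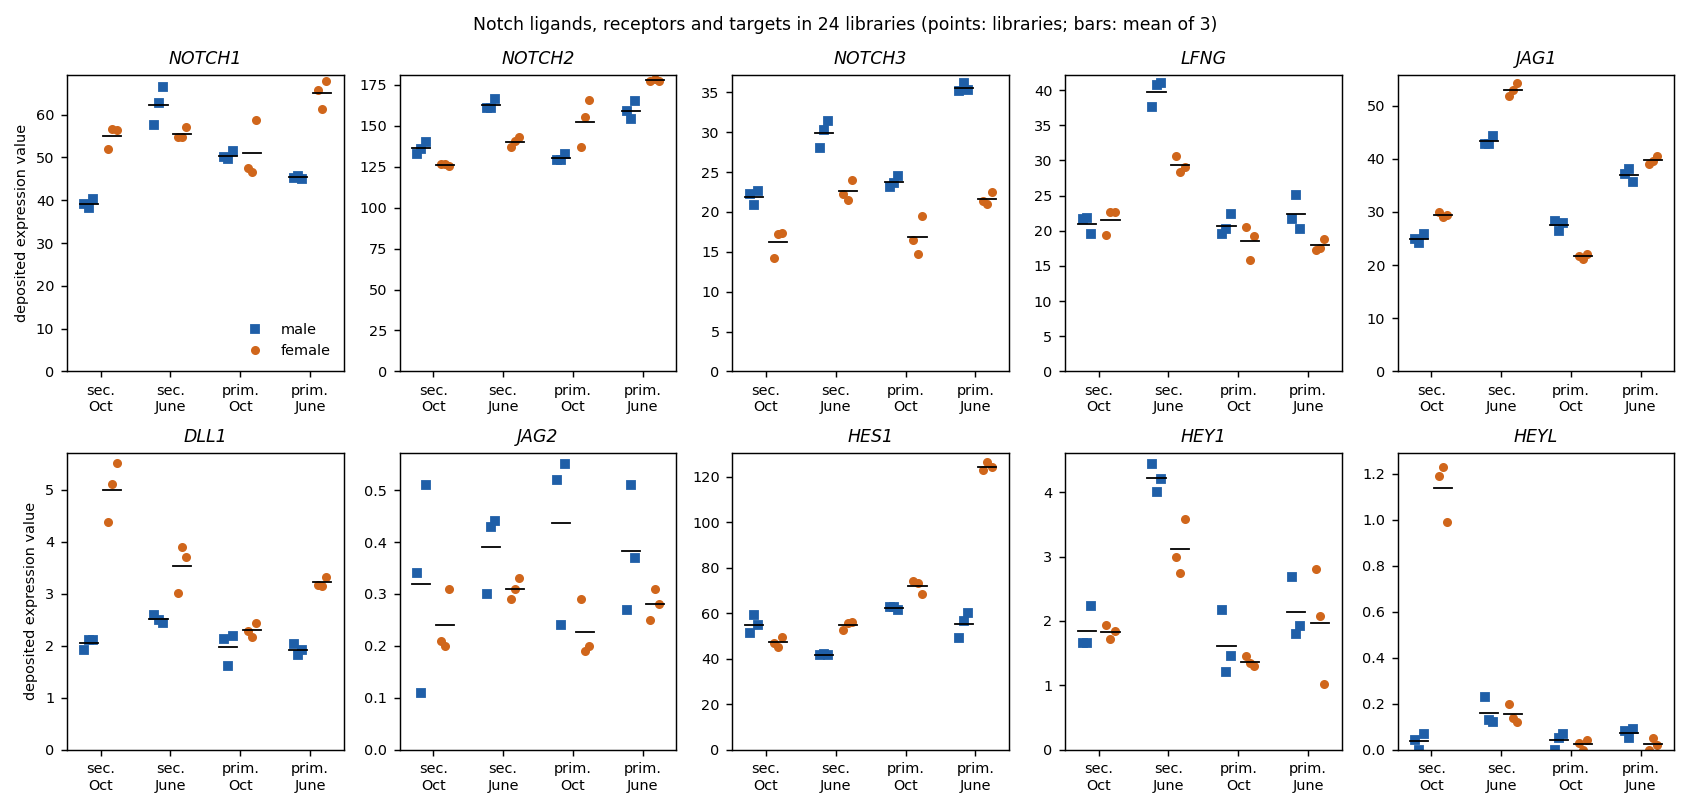
Normalised signal of the 10 Notch genes in each of the 24 libraries (points; bars mark group means of 3 libraries), by follicle type and month from left to right, with males left of females. JAG1 lies at 21.2 to 30.0 in October and at 35.6 to 54.2 in June, HES1 peaks in primary June females at 123 to 126, and JAG2 and HEYL stay below 1 in nearly all libraries.

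NOTCH1, a receptor made in many tissues, differed between follicle types in opposite directions in males and females in June. October values were 39.2, 38.3 and 40.2 in secondary males and 52.0, 56.8 and 56.5 in secondary females, against 50.0, 49.6 and 51.5 in primary males and 47.5, 46.5 and 58.9 in primary females. June values were 57.5, 62.6 and 66.6 in secondary males and 54.7, 54.9 and 57.1 in secondary females, against 45.3, 45.7 and 45.1 in primary males and 65.9, 61.3 and 67.9 in primary females. The 3 secondary October male libraries were the lowest of all 24, and the highest values came from primary June females and secondary June males, whose ranges overlapped. In June, NOTCH1 was higher in secondary than in primary cells of males, by 0.45 (SE 0.067, adjusted p 5.73e-06), and lower in those of females, at -0.22 (SE 0.067, adjusted p 0.00884). In October it was lower in secondary cells of males, at -0.35 (SE 0.067, adjusted p 0.00053), and in females it differed by 0.12 (SE 0.067, adjusted p 0.192), which was not called. The October difference from June was -0.65 in secondary males and -0.35 in primary females, whereas secondary females differed by -0.01 and primary males by 0.15, neither of them called. The primary male difference was called when only the compared groups were fitted (adjusted p 0.00466) and after rescaling to a common total, at 0.24 (adjusted p 0.00448). Averaged over the sexes, the June difference between secondary and primary cells was 0.11 (SE 0.048, adjusted p 0.0463). That call was lost when any of 18 of the 24 libraries was left out, with differences of 0.09 to 0.14.

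NOTCH2, a receptor that shares ligands with NOTCH1, was lower in October in both follicle types and both sexes, and its highest group mean was 1.41 times its lowest. In October it stood at 133, 136 and 140.2 in secondary males and 127, 126 and 125 in secondary females, against 129, 129 and 133 in primary males and 137, 155 and 166 in primary females. In June it stood at 161, 161 and 166 in secondary males and 137, 141 and 143 in secondary females, against 159, 154 and 165 in primary males and 178, 179 and 177 in primary females. Every October library lay below the June libraries of its own follicle type and sex, and primary June females were above all other groups. The October difference from June was -0.20 (SE 0.034, adjusted p 2.31e-05) in secondary cells and -0.26 (SE 0.034, adjusted p 1.16e-06) in primary cells. The call in secondary females, -0.15 (SE 0.049, adjusted p 0.0126), was lost without secondary June female replicate 3 (adjusted p 0.0502) and after rescaling to a common total (adjusted p 0.0582). In primary females it was -0.22, and -0.15 (adjusted p 0.00529) without primary October female replicate 1. In females NOTCH2 was lower in secondary than in primary cells, at -0.34 (SE 0.049, adjusted p 4.21e-06) in June and -0.27 (SE 0.049, adjusted p 0.000126) in October. In males the differences were 0.03 and 0.06, not called. The October mean of the sexes, -0.10 (SE 0.034, adjusted p 0.025), lost its call without secondary October male replicate 1, primary October male replicate 3 or primary October female replicate 3, and was 0.06 in males only.

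NOTCH3, known as the receptor of pericytes and vascular smooth muscle, was lower in October and higher in males. October values were 22.3, 20.9 and 22.6 in secondary males and 14.2, 17.2 and 17.3 in secondary females, against 23.1, 23.6 and 24.5 in primary males and 16.4, 14.8 and 19.5 in primary females. For June they were 28.1, 30.3 and 31.4 in secondary males and 22.3, 21.5 and 24.0 in secondary females, against 35.2, 36.1 and 35.3 in primary males and 21.4, 21.0 and 22.5 in primary females. Every male library lay above the female libraries of its follicle type and month, and every October library below the June libraries of its follicle type and sex. NOTCH3 fell by 0.44 (SE 0.055, adjusted p 3.4e-07) in secondary and by 0.46 (SE 0.055, adjusted p 2.53e-07) in primary cells in October on the log2 scale, and the interaction of follicle type with month (the seasonal difference of secondary cells minus that of primary cells) was 0.01 with a 95% interval of -0.15 to 0.17. Between follicle types it was called only in June males, at -0.24 (SE 0.078, adjusted p 0.0103), a call lost without secondary June male replicate 1 and after rescaling to a common total. The male minus female difference of that comparison was -0.30 (SE 0.11, adjusted p 0.0326), a call lost without secondary June male replicate 1, secondary June female replicate 3, primary June male replicate 2 or primary June female replicate 1 or 2. The summed level of 6 other pericyte markers, nearly all of it CSPG4, was 40.8 to 67.3 in October and 61.8 to 90.9 in June, and 1 of its 2 tested genes was lower in October in each follicle type. The summed level of 9 sheath and smooth muscle markers was 17252 to 17878 in primary June males, where NOTCH3 was highest, and 10359 to 11616 in secondary June males, where it was next highest. RGS5, a defining pericyte marker, did not pass 0.74 in any library. The part of these cells in the NOTCH3 values was not tested.

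**Figure D2:**
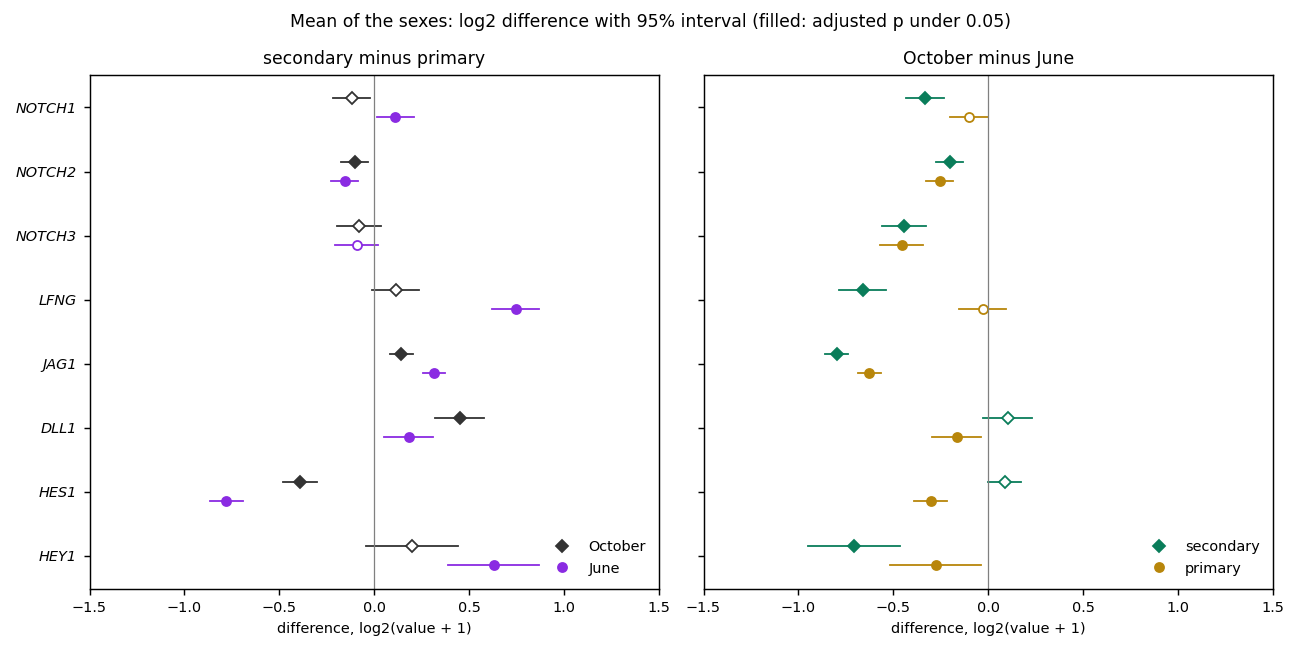
Differences of the 8 tested Notch genes on the log2(value + 1) scale with their 95% intervals, averaged over the sexes, for secondary against primary cells in each month and for October against June in each follicle type; filled points are called. LFNG, HEY1 and JAG1 lie right of 0 and HES1 left of 0 for secondary against primary cells in June, and 6 of 8 genes are called and left of 0 for October against June in each follicle type.

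LFNG, the Fringe enzyme among these genes, was raised in a single combination, secondary cells in June. In October the values were 21.7, 21.8 and 19.6 in secondary males and 19.3, 22.6 and 22.7 in secondary females, against 19.6, 20.3 and 22.3 in primary males and 20.5, 15.9 and 19.3 in primary females. In June they stood at 37.7, 40.7 and 41.0 in secondary males and 30.7, 28.3 and 29.1 in secondary females, against 21.7, 25.1 and 20.3 in primary males and 17.3, 17.6 and 18.9 in primary females. All 6 secondary June libraries lay above the 18 others, and the October ranges of the follicle types overlapped. The June difference between secondary and primary cells was 0.75 (SE 0.060, adjusted p 2.56e-10), and the October difference was 0.11 (SE 0.060, adjusted p 0.158). In secondary cells LFNG was lower in October than in June, at -0.66 (SE 0.060, adjusted p 2.16e-09), whereas primary cells differed by -0.03 (SE 0.060, adjusted p 0.697). These seasonal differences differed from each other, with an interaction of -0.63 (SE 0.085, adjusted p 1.96e-06). The seasonal difference of secondary cells was -0.89 in males and -0.43 in females, and the test of males against females gave -0.46 (SE 0.12, adjusted p 0.00412).

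JAG1, which encodes a Jagged ligand, separated all 8 groups. In October JAG1 was 24.9, 24.1 and 25.8 in secondary males and 30.0, 29.0 and 29.4 in secondary females, against 28.2, 26.5 and 28.0 in primary males and 21.8, 21.2 and 22.0 in primary females. In June it was 42.8, 42.8 and 44.2 in secondary males and 51.8, 52.9 and 54.2 in secondary females, against 37.2, 38.1 and 35.6 in primary males and 39.0, 39.6 and 40.5 in primary females. Ordered by mean, the groups ran from secondary June females and secondary June males through primary June females and primary June males to secondary October females, primary October males, secondary October males and primary October females, and no 2 neighbours in that order overlapped. Every October library was thus below every June library, and how many of all genes were so ordered was not counted. The October difference from June was -0.80 (SE 0.029, adjusted p 1.82e-16) in secondary and -0.63 (SE 0.029, adjusted p 1.98e-14) in primary cells. Averaged over the sexes it was more negative in secondary cells, with an interaction of -0.17 (SE 0.041, adjusted p 0.00149). In males the October difference from June was -0.77 in secondary and -0.41 in primary cells, whereas in females it was -0.82 and -0.84.

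Across follicle types JAG1 was higher in secondary cells in June, by 0.32 (SE 0.029, adjusted p 2.66e-09). The same held in October females, at 0.43 (SE 0.041, adjusted p 1.64e-08), but October males went the other way, at -0.14 (SE 0.041, adjusted p 0.0187). The October male call was lost without secondary October male replicate 1 or 2, or primary October male replicate 1 or 3. The male minus female difference of the October comparison was -0.57 (SE 0.058, adjusted p 7.92e-08). The mean of the sexes in October, 0.14 (SE 0.029, adjusted p 0.000501), averages these opposite differences, and without the secondary October female libraries, in males only, it was -0.14 (adjusted p 0.0246).

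The pericyte sum given above, the sum of 8 endothelial markers and the sum of 7 immune markers were also lower in October in each follicle type and sex. The endothelial sum was 10.1 to 21.2 in October and 20.5 to 44.3 in June, nearly all of it EGFL7, and the immune sum was 10.9 to 18.7 in October and 16.2 to 41.1 in June. Of the markers that were tested, 2 of 2 endothelial and 2 of 4 immune ones were lower in secondary cells in October, and 1 of 2 and 3 of 4 in primary cells. Of the immune ones 1 was higher in October in secondary cells and 0 in primary cells, and in secondary females 2 were higher and 2 lower. Whether these cells take part in the lower October values of JAG1, NOTCH2 and NOTCH3 was not tested.

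DLL1, the Delta-like ligand gene that was tested, had low values, with its top level in secondary cells of October females. October libraries stood at 1.91, 2.12 and 2.12 in secondary males and 4.38, 5.12 and 5.52 in secondary females, against 2.13, 1.62 and 2.19 in primary males and 2.28, 2.17 and 2.44 in primary females. In June DLL1 was 2.59, 2.49 and 2.44 in secondary males and 3.01, 3.90 and 3.70 in secondary females, against 2.04, 1.82 and 1.91 in primary males and 3.18, 3.15 and 3.33 in primary females. The 3 secondary October female libraries lay above the 21 others, which were all at 3.90 or less. In October females DLL1 was higher in secondary cells, by 0.86 (SE 0.087, adjusted p 3.49e-08), and in males the October difference was 0.04 (SE 0.087, adjusted p 0.819). The test of males against females for that comparison gave -0.82 (SE 0.12, adjusted p 1.87e-05). June showed the reverse division, with a call in males at 0.26 (SE 0.087, adjusted p 0.0127) and none in females at 0.10 (SE 0.087, adjusted p 0.363), but the male minus female difference, 0.16 (SE 0.12, adjusted p 0.305), was not called.

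With the sexes averaged, DLL1 was higher in secondary cells in October by 0.45 (SE 0.062, adjusted p 4.07e-06). That value rests on females. With the secondary October female libraries left out, in males only, it was 0.04 with an adjusted p of 0.809. The interaction of follicle type with month was then -0.22 (adjusted p 0.135), in place of 0.27 (SE 0.087, adjusted p 0.0146) over both sexes. For October against June in primary cells DLL1 was called at -0.17 (SE 0.062, adjusted p 0.0231). That call was lost without primary June male replicate 1 or primary October male replicate 2 and after rescaling to a common total. By sex the primary difference was -0.36 (SE 0.087, adjusted p 0.00178) in females and 0.02 (adjusted p 0.841) in males. Secondary cells of females went the other way, at 0.41 (SE 0.087, adjusted p 0.000493), and those of males were at -0.20 (adjusted p 0.053), not called. The secondary October female libraries also had the raised keratinocyte sum, with KRT5 up to 203 and KRT14 up to 82.0, and 9 of 9 tested keratinocyte markers were higher in secondary than in primary October females. Among the other groups, primary June females had the lowest keratinocyte sum, 8.17 to 8.32, with DLL1 at 3.15 to 3.33. Primary October males had the highest, 72.3 to 78.9, with DLL1 at 1.62 to 2.19. The share of keratinocyte RNA in the DLL1 level was not tested.

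JAG2, the second Jagged gene, stayed between 0.11 and 0.55 over the 24 libraries and was not tested. Fitted without the filter on low values it was called in 0 of 21 comparisons.

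HES1, a repressor gene that Notch switches on in many cell types, was lower in secondary than in primary cells in both months and both sexes. The October libraries had 51.2, 59.2 and 54.8 in secondary males and 47.0, 45.1 and 49.4 in secondary females, against 62.9, 62.6 and 61.6 in primary males and 74.3, 73.3 and 68.5 in primary females. The June libraries had 41.5, 42.2 and 41.8 in secondary males and 52.9, 55.5 and 56.0 in secondary females, against 49.0, 56.7 and 60.1 in primary males and 123, 126 and 124 in primary females. Secondary and primary libraries of the same month and sex did not overlap. Primary June females stood apart from the rest: HES1 averaged 72.0 ± 3.09 in primary October females, the next highest group, and 124 ± 1.75 in primary June females (SD, n = 3 each). The difference between secondary and primary cells was -0.78 (SE 0.042, adjusted p 2.32e-13) in June and -0.39 (SE 0.042, adjusted p 1.33e-07) in October. By sex it was -0.39 in June males and -1.17 in June females, and -0.18 in October males and -0.60 in October females. The October male call (adjusted p 0.0385) was lost without secondary October male replicate 1 or 3, or any 1 of the 3 primary October male libraries.

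HES1 differed between the months in opposite directions in males and females. In males it was higher in October than in June, by 0.38 (SE 0.060, adjusted p 9.16e-06) in secondary and 0.18 (SE 0.060, adjusted p 0.0159) in primary cells. In females it was lower in October, at -0.21 (SE 0.060, adjusted p 0.00519) in secondary and -0.78 (SE 0.060, adjusted p 2.88e-10) in primary cells. The male minus female differences of these comparisons were 0.60 (SE 0.085, adjusted p 5.51e-06) and 0.96 (SE 0.085, adjusted p 4.19e-09). The call in primary males was lost without primary June male replicate 1, whose value of 49.0 was the lowest of its group.

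HEY1, another Notch target gene, followed LFNG with its top level in secondary June cells. October values were 1.65, 1.66 and 2.23 in secondary males and 1.93, 1.72 and 1.84 in secondary females, against 2.17, 1.20 and 1.45 in primary males and 1.45, 1.34 and 1.30 in primary females. June values were 4.44, 4.01 and 4.20 in secondary males and 3.00, 2.74 and 3.59 in secondary females, against 2.68, 1.80 and 1.92 in primary males and 2.80, 2.07 and 1.02 in primary females. The secondary June male libraries lay above the 21 others, and the ranges of secondary and primary cells overlapped in June females and in October males. In June HEY1 was higher in secondary cells by 0.63 (SE 0.12, adjusted p 6.37e-05), and in October the difference was 0.20 (SE 0.12, adjusted p 0.209). Secondary cells were lower in October than in June, at -0.71 (SE 0.12, adjusted p 1.54e-05). In primary cells that difference was -0.28 (SE 0.12, adjusted p 0.0442), and the interaction was -0.43 (SE 0.16, adjusted p 0.0356). Each of these last calls was lost when any of 10 of the 24 libraries was left out, with differences of -0.40 to -0.17 for primary cells and -0.53 to -0.31 for the interaction. Within each sex the primary difference was not called, at -0.28 (adjusted p 0.167) in females and -0.27 (adjusted p 0.166) in males.

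HEYL, the third target gene, was listed at 1.19, 1.23 and 0.99 in secondary October females and at 0.23 or less in each of the other 21 libraries. It reached 1 in 2 libraries only and so was not among the genes tested. Fitted without the filter, it differed between secondary and primary October females by 1.06 (SE 0.045, adjusted p 3.52e-13), and between males and females of secondary October cells by -1.04. That SE pools all groups, and in the others HEYL lay near 0. Calls came at such low values too, as for October against June in secondary males, at -0.16 (adjusted p 0.00619). The secondary October female libraries were again those with the raised keratinocyte markers, and DLL1 was highest in the same 3. The part of keratinocyte RNA was not tested.

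**Figure D3:**
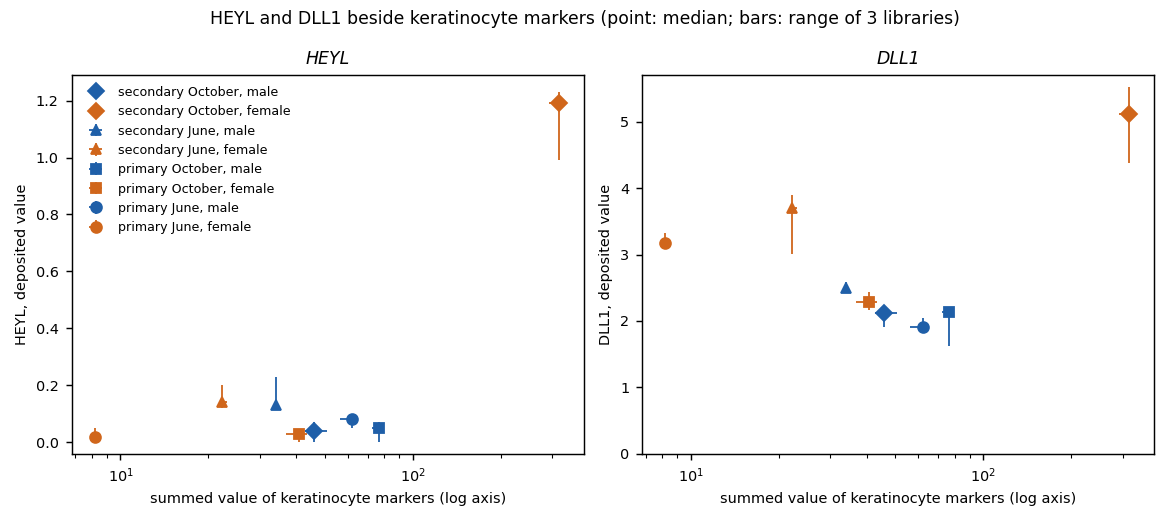
HEYL and DLL1 signal of each group against the summed signal of 10 keratinocyte markers (log axis); points are medians and bars the range of 3 libraries. The 3 secondary October female libraries lie apart at a keratinocyte sum of 292 to 321, with HEYL at 0.99 to 1.23 and DLL1 at 4.38 to 5.52. The other 21 libraries lie at sums of 8.17 to 78.9, with HEYL at 0.23 or less and DLL1 at 1.62 to 3.90.

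Of the 8 tested genes, 5 were called between secondary October males and females (40.4% of all genes), 6 between secondary June males and females (39.5%), 4 in primary October cells (33.6%) and 7 in primary June cells (45.4%). NOTCH3 was higher in males in 4 of 4 combinations, with differences of 0.42 and 0.39 in secondary October and June cells and 0.48 and 0.69 in primary October and June cells. DLL1 was lower in males in 3 of 4, with -0.97 in secondary October, -0.37 in secondary June and -0.53 in primary June cells. HES1 was lower in males in 3 of 4 and higher in secondary October cells, and its most negative value was -1.16 (SE 0.060, adjusted p 1.95e-13) in primary June cells. JAG1 was lower in males in 3 of 4 and higher in primary October cells, by 0.33 (SE 0.041, adjusted p 8.55e-07). Its primary June call, -0.10 (SE 0.041, adjusted p 0.0471), was lost when any of 16 of the 24 libraries was left out, with differences of -0.12 to -0.08. NOTCH1 was lower in males of secondary October cells, at -0.48, and of primary June cells, at -0.51. LFNG was higher in males in June, by 0.43 in secondary and 0.30 in primary cells, the second call being lost without primary June male replicate 2. NOTCH2 was higher in males of secondary June cells, by 0.21, and lower in males of primary October cells, at -0.22, and of primary June cells, at -0.16. Its primary October call was lost when only the compared groups were fitted (adjusted p 0.0522), and its primary June call without primary June male replicate 2 (adjusted p 0.0559). HEY1 was called in 0 of the 4.

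**Figure D4:**
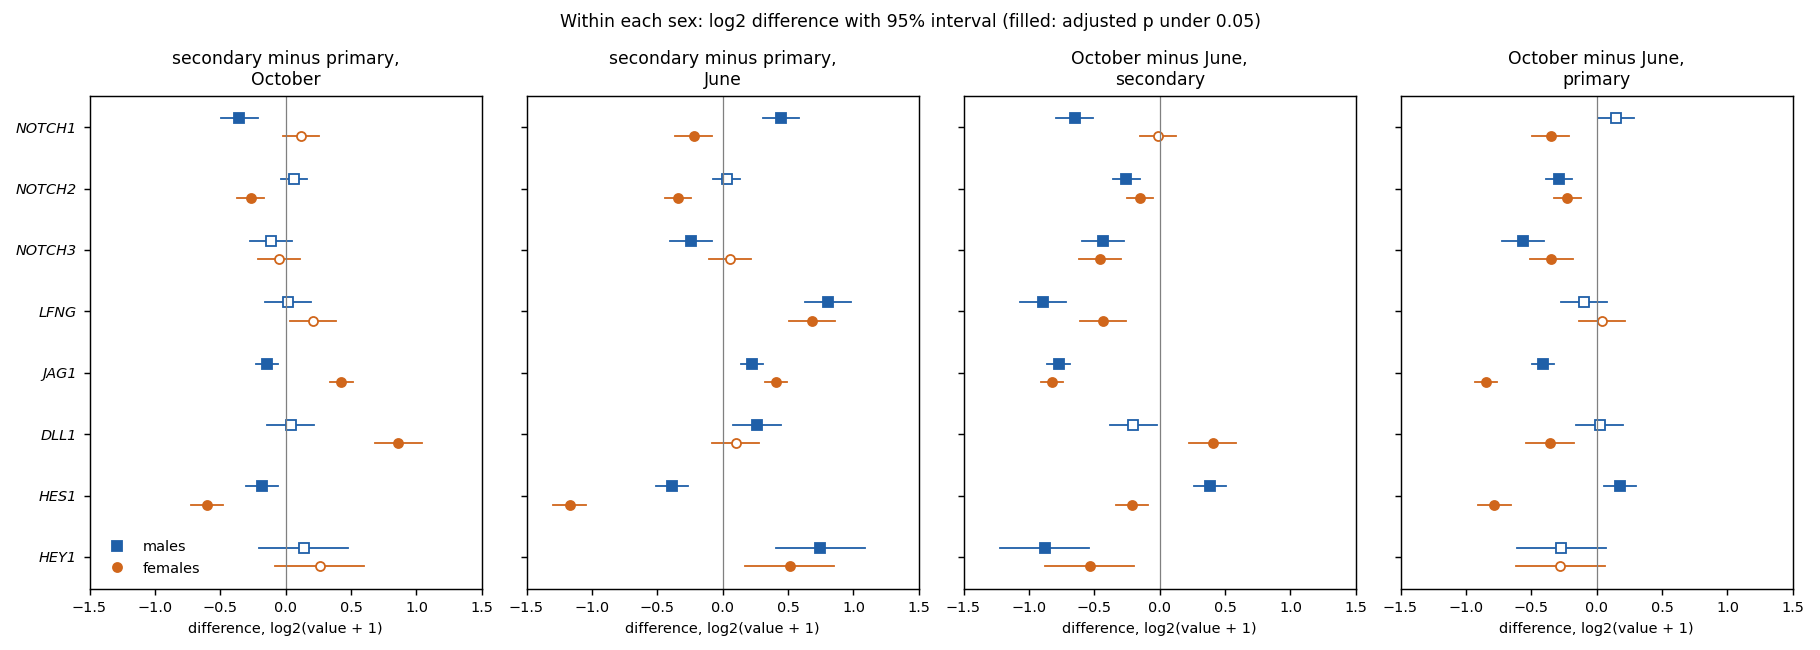
Differences of the 8 tested Notch genes within each sex on the log2(value + 1) scale with 95% intervals, for secondary against primary cells and October against June; males are drawn above females and filled points are called. Called values of the sexes lie on opposite sides of 0 for NOTCH1 between follicle types in June, for JAG1 between follicle types in October, and for HES1 between months in both follicle types.

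Whether a comparison differs between the sexes was also tested directly. The male minus female difference was called for 5 of 8 members in the June comparison of follicle types (41.2% of all genes), for 5 in the October one (26.7%), for 4 in the seasonal comparison of secondary cells (37.7%) and for 4 in that of primary cells (36.8%). NOTCH1 and HES1 were called in all 4, and how many of all genes were was not counted. For NOTCH1 the values were 0.67 and -0.47 for follicle type in June and October, and -0.64 and 0.50 for season in secondary and primary cells. For HES1 they were 0.78, 0.42, 0.60 and 0.96 in the same order. After rescaling each library to a common total, the June count was 3 in place of 5. The calls lost were those of JAG1, at -0.09 (adjusted p 0.253) in place of -0.18, and NOTCH3, at -0.21 (adjusted p 0.134) in place of -0.30. The median of all genes moved farthest with that rescaling for the male minus female difference of season in secondary cells, where it was -0.12 after rescaling and -0.02 as deposited. The interaction of follicle type with month was called for 6 of 8 members, 2 of them positive and 4 negative, where 46.2% of all genes were called, 23.3% as positive and 22.9% as negative (3041 and 2982 genes, or 2090 and 4267 after the rescaling).

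For secondary against primary cells 7 of 8 members were called in June males (59.6% of all genes) and 6 in June females (49.3%), and 3 in October males (18.5%) and 4 in October females (35.5%). For October against June 7 were called in secondary males (56.5%) and 7 in secondary females (51.3%), and 4 in primary males (55.5%) and 6 in primary females (48.2%). The October male count was 1 without secondary October male replicate 1 or without primary October male replicate 1 or 3. JAG1 and HES1 were called in each of these 8 comparisons, and how many of all genes were was not counted.

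Other genes of the pathway were taken from a list of 56, of which 55 had a row and 43 were tested. They hold the proteases that cut the receptor, the enzymes that modify it, the ubiquitin ligases and adaptors that move receptor and ligand, the nuclear complex and further targets. Between secondary and primary cells in June 26 of 43 were called, 5 as higher and 21 as lower, where 61.9% of all genes were called, 31.6% as higher and 30.3% as lower. Their median difference was -0.09, beside 0.00 over all genes. In October 10 were called, 4 as higher and 6 as lower, where 31.5% of all genes were called. For October against June 28 were called in secondary cells, 11 as higher and 17 as lower, where 62.9% of all genes were called. In primary cells it was 25, 6 as higher and 19 as lower, where 60.9% of all genes were called. The June split differed by sex, with 3 higher and 22 lower in females (49.3% of all genes called) and 11 higher and 15 lower in males (59.6%). By role, averaged over the sexes, 6 of 9 proteases were lower in secondary cells in June and 2 higher. Of 7 glycosyltransferases 5 were lower, and of 12 genes of the nuclear complex 6 were lower, with 0 higher in either role. In females alone 8 genes of the nuclear complex were lower and 0 higher, whereas in males 3 were lower and 4 higher. Of 10 genes of ubiquitin ligation and trafficking 3 were lower and 2 higher, of 4 further targets 1 was lower and 1 higher, and the 1 noncanonical ligand was not called. ADAM10, the protease that makes the first ligand-dependent cut, was among the lower ones at -0.45. RBPJ, the DNA-binding partner of all Notch receptors, differed between follicle types by -0.09 in June, which was not called, and for October against June by -0.17 in secondary and -0.31 in primary cells, both called as lower.

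Of the listed genes called in each comparison, the 3 with the largest rise and the 3 with the largest fall are named here. NEURL1B, a ubiquitin ligase that promotes ligand uptake, averaged 2.46 ± 0.053 in secondary June males and 3.89 ± 0.31 in secondary June females, against 0.95 ± 0.14 in primary males and 0.44 ± 0.059 in primary females (SD, n = 3 each), a difference of 1.30. HES4, a repressor gene related to HES1, was higher in secondary June cells by 0.99, opposite to HES1 itself. APH1A, a subunit of the gamma-secretase that makes the final cut, was higher by 0.20. The co-repressor genes TLE4 and TLE2 were lower in secondary June cells, at -0.80 and -0.52, and so was the repressor gene HES2, at -0.52.

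In October the follicle types differed at HES4 (0.71), NEURL1B (0.66) and NUMBL (0.14), which encodes an adaptor that restrains Notch, all higher in secondary cells. TLE2 (-0.49), the target gene HEY2 (-0.33) and the co-activator gene MAML3 (-0.20) were lower. None of the 6 was called without the secondary October female libraries, which leaves the male comparison alone. With all libraries fitted, 18.5% of all genes were called in October males, against 31.5% over both sexes. The male differences were 0.096 for HES4, 0.225 for NEURL1B, 0.039 for NUMBL, 0.092 for TLE2, -0.16 for HEY2 and 0.050 for MAML3. The NUMBL call was lost without any of 6 libraries, namely secondary October male replicates 1 and 3, secondary October female replicates 2 and 3, primary October male replicate 1 and primary October female replicate 2.

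Between months TLE4 was higher in October by 1.12 in secondary and 0.49 in primary cells. The rise of TLE4 in secondary cells was larger in males than in females. In secondary males it averaged 9.82 ± 0.44 in October and 2.26 ± 0.23 in June (SD, n = 3 each). GXYLT1, which extends a sugar on the receptor, was higher by 0.95 in secondary and 0.68 in primary cells. CIR1, which encodes an RBPJ co-repressor, was higher in secondary cells by 0.44, and NUMBL in primary cells by 0.31. Lower in October were HES4 (-0.71), TLE2 (-0.55) and NEURL1B (-0.55) in secondary cells, and HES2 (-0.61), TLE2 (-0.59) and RBPJL (-0.54), a paralogue of RBPJ, in primary cells. NOTCH4 at 0.20 to 0.69 and DLL4 at 0 to 0.03, the endothelial receptor and ligand of the family, did not reach the level for testing.

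**Figure D5:**
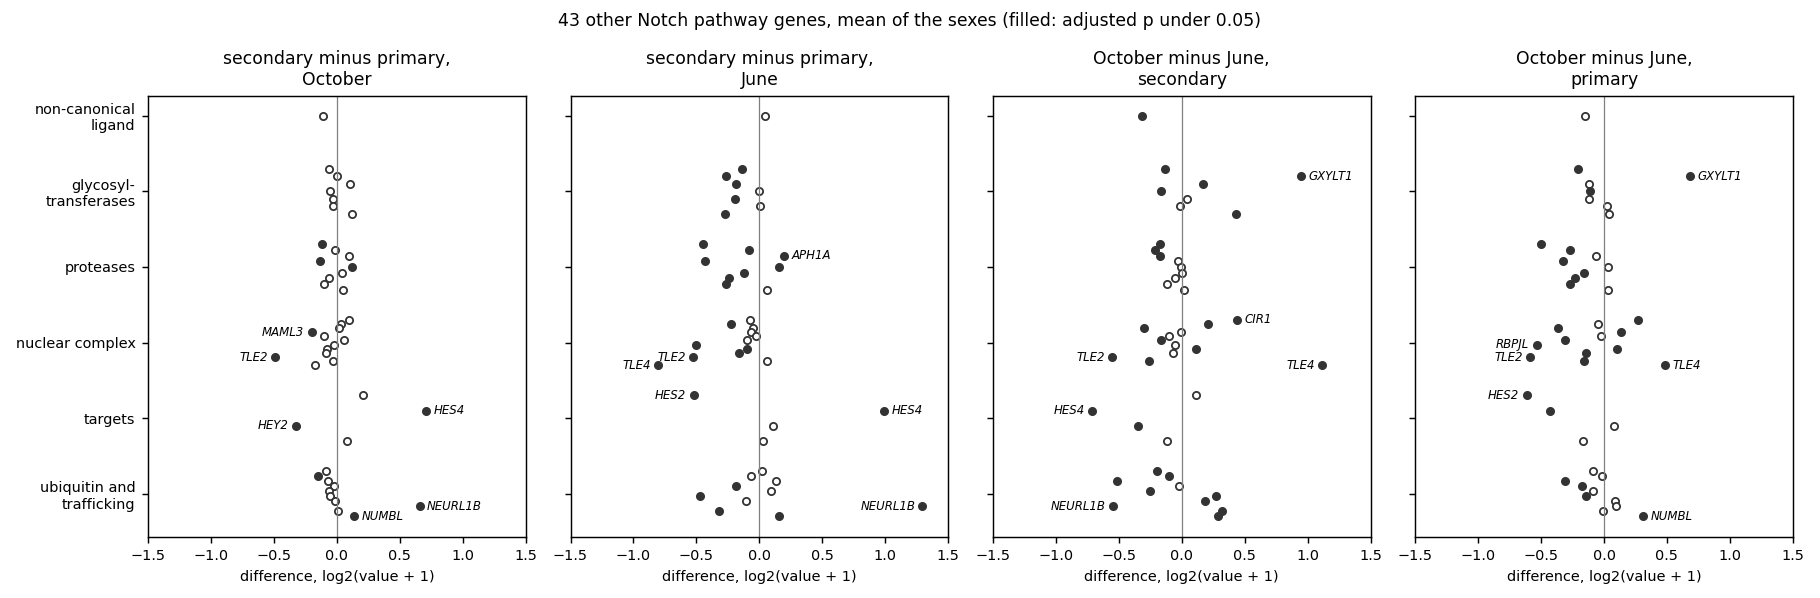
Differences of the 43 other tested Notch pathway genes on the log2(value + 1) scale, averaged over the sexes, in the 4 comparisons of follicle type and month; filled points are called and the named genes are written beside their points. Called points left of 0 outnumber those right of it for secondary against primary cells in June (21 called lower, 5 higher) and for October against June in primary cells (19 lower, 6 higher).

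Members resembled each other in part. Over the 8 group means on the log2 scale, LFNG and HEY1 had a Pearson r of 0.96, JAG1 and HEY1 of 0.80, and LFNG and HES1 of -0.67. The groups share libraries and a scale, so these are descriptions. Among 9984 other tested genes whose mean reached 5 in at least 1 group, MRI1, NOL6 and TM4SF19 ran closest to LFNG (r 0.97 to 0.99) and MPP1 and ACTB to HEY1 (0.98). JAG1 was closest to ZNF532, KLF12 and NFIC (0.92 to 0.94), and DLL1 to PDS5A, MEGF10 and PLEKHA8 (0.95 to 0.97). Nearest to HES1 were LCOR, AGAP1 and PKD1 (0.93 to 0.96). For the receptors they were STAG2, TAZ and PM20D2 for NOTCH1 (0.92 to 0.94), RAB13, H6PD and FBXW2 for NOTCH2 (0.95 to 0.98), and POLI, ARAF and STK10 for NOTCH3 (0.98 to 0.99).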

How the data were processed

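Per the labels' protocols, RNA came from a TRIzol extraction (RNAiso Plus) and the NEBNext Ultra kit gave libraries for paired-end sequencing. kallisto 0.46.1 and sleuth 0.30.0 are named, per the submitters' processing notes, without their roles. As deposited, the tables hold 1 normalised signal per gene and library with 2 decimals, and no source used here states how the authors scaled or filtered them, or the genome build, transcripts and depth. The values are not counts, so no counting interval is given and precision rests on 3 libraries per group. That TPM values were the source, and hence per length, is not stated, so levels are not compared between genes.

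A gene was kept where 3 or more of the 24 libraries had a value of 1 or higher (13049 of 20326). Values were set to log2(value + 1), a scale that understates the change of low genes, and a model of 8 group means was fitted, with limma 3.58.1 under R 4.3.3 (and statmod 1.5.0), with a variance trend and robust estimation. The Benjamini-Hochberg adjustment ran over all tested genes of a comparison. Tests were two-sided, in 21 comparisons, and the fit was tested on simulated data. The members, the lists of pathway and marker genes and the rule for named genes (all members; up to 3 called pathway genes with the largest rise and up to 3 with the largest fall in each of the 4 comparisons averaged over the sexes; the 3 genes most like each member) were chosen with earlier results of these data known. One gene that this rule names is not reported here. TLE1 of the list had no row. Alternatives were a pseudocount of 0.1, no filter or a stricter one (6 libraries at 1), a non-robust spread, median-of-ratios factors, a common total of 1e+06, a fit of only the groups compared, omission of every library in turn, and a block for the replicate number. Leaving out the secondary October female libraries was added after their keratinocyte markers were seen. Averages then rest on males alone, so this setting cannot tell those libraries from females in general.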

Additional observations from a re-analysis of the deposited data

Results flagged for a closer look

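These results stand out because an effect differed between 2 groups by a test of the difference itself in limma, on the log2(value + 1) scale. Their sizes and errors are those of the report, and none is weighed here.

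The seasonal difference of secondary cells minus that of primary cells was -0.23 for NOTCH1, -0.17 for JAG1, 0.27 for DLL1, 0.39 for HES1, -0.43 for HEY1 and -0.63 for LFNG. For LFNG the 6 secondary June libraries were above the 18 others. For DLL1 the value rests on females. With the secondary October female libraries left out, in males only, the value was 0.21 (adjusted p 0.0528) for HES1, -0.80 for NOTCH1 and -0.36 for JAG1. For HEY1 the call was lost without any of 10 libraries. For NOTCH1 the order of the follicle types was opposite in the sexes. Its October difference from June was -0.65 in secondary and 0.15 in primary males, but -0.01 in secondary and -0.35 in primary females. For JAG1 these differences were -0.77 and -0.41 in males, and -0.82 and -0.84 in females.

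The difference of secondary against primary cells in June was not the same in males and females for 5 genes. Male minus female, it was 0.67 for NOTCH1, 0.37 for NOTCH2, -0.30 for NOTCH3, -0.18 for JAG1 and 0.78 for HES1. The calls of NOTCH3 and JAG1 were lost after rescaling to a common total, where JAG1 was at -0.09. In October the male minus female difference was -0.47 for NOTCH1, 0.33 for NOTCH2, -0.57 for JAG1, -0.82 for DLL1 and 0.42 for HES1, so the sign for NOTCH1 was opposite in the 2 months and that for NOTCH2 and HES1 was positive in both.

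For October against June in secondary cells, the male minus female difference was -0.64 for NOTCH1, -0.61 for DLL1, 0.60 for HES1 and -0.46 for LFNG. In primary cells it was 0.50 for NOTCH1, 0.43 for JAG1, 0.38 for DLL1 and 0.96 for HES1. The DLL1 call in primary cells was lost without primary October male replicate 1 or 3.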

How the results depend on the processing

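Of 168 differences of the 8 tested genes, 113 were called. The direction of every called difference held under the 9 planned settings, leaving out each library included, and 3 turned with the secondary October female libraries left out, which leaves males only: JAG1 (-0.14) and NOTCH2 (0.062) for secondary against primary cells in October and DLL1 for the interaction (-0.22). In that setting DLL1 for October against June in secondary cells was -0.20, and MAML3 and TLE2 for secondary against primary cells in October were 0.050 and 0.092.

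After rescaling to a common total, 3 members were called in place of 5 for the male minus female difference of secondary against primary cells in June, and 12 uncalled differences turned. These were DLL1 (-0.019), LFNG (-0.063) and NOTCH2 (-0.023) between follicle types in October males, NOTCH2 (-0.033) and NOTCH3 (-0.071) for the interaction, JAG1 (-0.058) and NOTCH3 (-0.085) for the male minus female difference of season in secondary cells and NOTCH2 (0.0049) for that in primary cells, LFNG (0.023) for season in primary cells, NOTCH1 (0.011) for season in secondary females, and NOTCH1 (0.023) in primary October and HEY1 (-0.032) in secondary October cells for males against females. With a pseudocount of 0.1, HEY1 (-0.016) turned for the male minus female difference of season in primary cells. The cause of these turns was not tested. Calls were lost for 7 differences at a common total, 6 with the compared groups alone, 4 with no filter, 2 with a pseudocount of 0.1 and 1 with median-of-ratios factors, and in 82 of 4032 cases with 1 library left out.

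With 1 library left out, the count for secondary against primary October males ran from 1 to 3. Uncalled differences crossed 0 with these lowest and highest values: DLL1, October against June in primary males, -0.029 to 0.11, and between follicle types in October males, -0.052 to 0.090; HEY1, male minus female difference of season in primary cells, -0.20 to 0.26, and of follicle type in October, -0.24 to 0.028, and males against females in primary June, -0.14 to 0.32, primary October, -0.025 to 0.24, and secondary October, -0.091 to 0.051; LFNG, males against females in secondary October, -0.11 to 0.015, season in primary females, -0.030 to 0.14, and over both sexes, -0.065 to 0.021, and follicle type in October males, -0.020 to 0.071. The same held for NOTCH1, males against females in primary October, -0.068 to 0.099, and season in secondary females, -0.036 to 0.027, and for NOTCH3, the interaction, -0.032 to 0.063, the male minus female difference of season in secondary cells, -0.065 to 0.070, and of follicle type in October, -0.16 to 0.028, and follicle type in October females, -0.14 to 0.052.

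With the replicate number as a block, 0 of the 113 calls were lost and 5 were added. These were NOTCH1 for secondary against primary cells in October (-0.12, adjusted p 0.0278), for October against June in primary males (0.15, adjusted p 0.0313) and in primary cells over both sexes (-0.10, adjusted p 0.0337) and for males against females in secondary June cells (0.16, adjusted p 0.0305), and NOTCH2 for males against females in secondary October cells (0.11, adjusted p 0.0496). Same-numbered libraries of different groups had correlations of deviations of -0.28 to 0.35 (median 0.03), 25 of 84 above 0.1, against -0.40 to 0.51 (median -0.02), 33 of 168 above 0.1, for libraries of different number. The labels name no shared animal or batch and not every pair was above 0.1, so the numbers were not used to pair libraries. Of the 24 libraries, 12 matched best with their own number. Some such matches arise without pairing, as 84 pairs share a number and 168 do not. The matches are at most a hint from the data and not the design. Read depth is unknown, and 3 libraries per group limit what can be seen for HEY1 and DLL1, whose values are low.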
